A study of Homo sapiens with 3 samples.

Results

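The genes described here are the insulin-like growth factors IGF1 and IGF2, their receptor IGF1R and the binding proteins IGFBP1 to IGFBP7. They were chosen by name: every probe set whose platform annotation gives exactly 1 of these 10 symbols was taken, which found 26 probe sets of 9 genes among the 19775 genes named on the array. IGF2 had none, because its 3 probe sets also name INS-IGF2, a transcript that runs on from the insulin gene, and it was not analysed here as a gene. RNA came from IMR-90 ER:Ras cells, human fetal lung fibroblasts carrying a Ras protein that 4-hydroxytamoxifen switches on, so all conditions share the fusion. In oncogene-induced senescence (OIS) 4-hydroxytamoxifen (4-OHT) had been present at 100 nM over 6 days. In replicative senescence (RS) the passages had gone on over 10 weeks, and growing cells had no treatment. The labels name no vehicle for the growing or RS cells. They give neither the promoter that drives the fusion nor whether the cells are 1 clone. Each condition was 1 sample on 1 array, so the design allows no test and every difference below lacks a replicate check.

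IGF1 and IGF2 are secreted peptides that signal through the receptor tyrosine kinase IGF1R to promote growth and survival. The binding proteins IGFBP1 to IGFBP6 hold them with high affinity outside the cell, keep them from the receptor and release them when proteases cut the carrier. IGFBP7 binds IGFs weakly and is known as a secreted matrix protein. Fibroblasts are a known source of several of these carriers, and secreted IGFBPs are among the proteins described in the medium of senescent cells.

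Values are signals per probe set, a linear brightness whose trimmed mean was nearly equal on the 3 arrays. The floor was 45.5 signal units, the median of all values on the 3 arrays, and values below it were raised to it for every ratio, so a fold given as "at least" is a bound set by the floor. A gene was represented by its brightest probe set and called measured if any array exceeded the floor there. That held for 13466 genes in all and for 9 of the 10 described here, of which IGFBP1 passed only through OIS and IGF1 only through RS, so that these genes had to differ. Of the 26 probe sets, 20 cleared it on 1 array or more and 16 on all 3. Probe error was taken from 6759 genes with a second probe set above the floor and came to an SD of 0.36 log2 units in OIS against growing cells. It was 0.33 in RS against growing cells and 0.37 in OIS against RS, and it leaves out differences between cultures. Signals of different genes were not set against each other, since probes differ in brightness.

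The senescent samples differed from growing cells, and from each other, in a few of these genes. IGFBP1 was above the floor in OIS alone, IGFBP3 was bright on all 3 arrays and higher in RS, and IGFBP2 was lower in RS. IGF1R was at least 2-fold apart between OIS and RS on its brightest probe set, and the remaining binding proteins stayed within 2-fold on theirs. In such bulk RNA, fewer cells that express a gene and less RNA per cell cannot be told apart.

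Of the 9 measured genes, 1 passed 2-fold upward in OIS relative to growing cells and 0 passed it downward, beside 4.92% and 6.63% of all measured genes. In RS against growing cells the counts were 1 higher and 1 lower, beside 3.72% and 5.58% of all genes. Between OIS and RS, 2 passed 2-fold upward in OIS and 2 downward, beside 5.48% and 5.27% of all genes. With 9 genes a single member makes 11.1%, so these counts say little about the family as a whole. The median log2 ratio of the 9 genes was 0.01 in OIS and 0.15 in RS relative to growing cells. It was -0.11 in OIS relative to RS, beside 0.00 over all measured genes in each comparison.

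**Figure D1:**
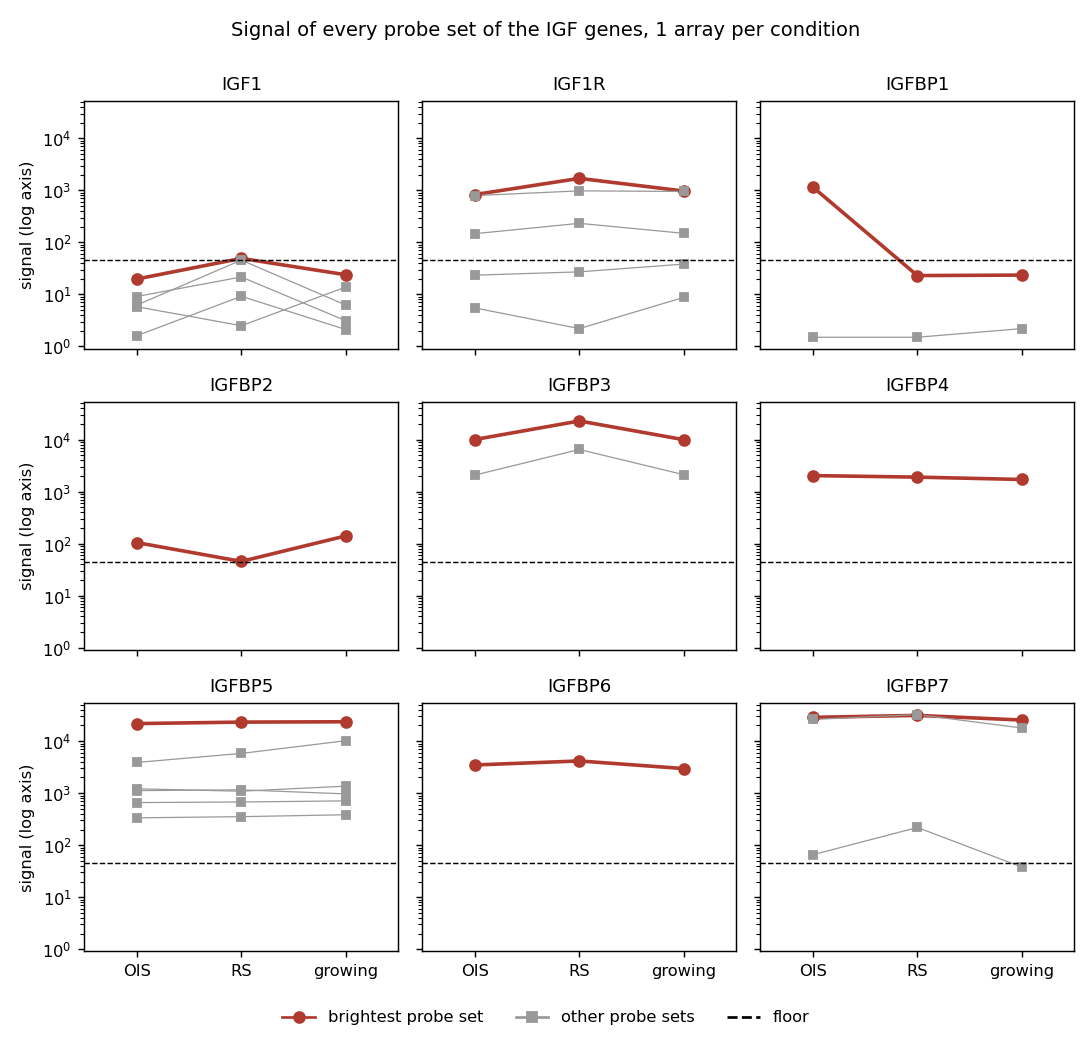
Signal (log axis) of every probe set of the 9 IGF genes on the OIS, RS and growing arrays, with lines joining a probe set, the brightest in red and the floor of 45.5 dashed. IGFBP1 stands at 1165 in OIS and under the floor on the other arrays, IGFBP3 is highest in RS, and the single IGFBP2 probe set is lowest in RS.

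The ligand IGF1 was at the edge of detection. Its brightest probe set read 19.7 in OIS, 49.2 in RS and 23.8 in growing cells, so only the RS value cleared the floor. A second probe set of IGF1 read 6.2 in OIS, 45.6 in RS and 6.2 in growing cells, and the other 3 stayed between 1.6 and 21.6. RS was thus the highest array on these probe sets, both of which can hybridize to several transcripts, at a level where the ratio, at least 1.08-fold over growing cells, is a bound. Under a lower floor of 11.7, the 25th percentile, IGF1 had a log2 ratio of 1.05 in RS against growing cells and -1.32 in OIS against RS. IGFALS, the subunit that joins IGF1 and IGFBP3 in the circulating complex, stayed under the floor with 29.9 in OIS, 4.2 in RS and 31.5 in growing cells.

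The receptor IGF1R had 3 probe sets above the floor on all arrays and 2 below it on all. The brightest read 828 in OIS, 1699 in RS and 968 in growing cells, which made RS 1.75-fold higher than growing cells and OIS 2.05-fold lower than RS. The next read 793 in OIS, 977 in RS and 952 in growing cells, a difference of 1.03-fold between RS and growing cells. The faintest of them read 147 in OIS, 232 in RS and 149 in growing cells, with RS 1.56-fold higher than growing cells. All 3 put RS highest and OIS lowest, but the margin of RS passed 2 SDs of probe error on the brightest probe set alone, and OIS and growing cells lay within it on all 3. Of all measured genes, 4.93% had a ratio of OIS over RS at least as low as the brightest probe set of IGF1R.

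IGFBP1, a small carrier made chiefly by liver and decidua and known to respond to insulin and stress, showed the widest difference of the family. Its usable probe set read 1165 in OIS, 23.0 in RS and 23.5 in growing cells. OIS was therefore at least 25.6-fold higher than either, with RS and growing cells both under the floor and without order between them. The second IGFBP1 probe set was dark, with 1.5 in OIS, 1.5 in RS and 2.2 in growing cells, so the value rests on a single probe set. Among hepatocyte markers ALB, APOA1, APOB and FGB stayed below the floor on all 3 arrays. TTR lay just over it on all 3, with 57.0 in OIS, 51.2 in RS and 55.4 in growing cells. SERPINA1 cleared it in OIS (51.7) and RS (57.5), and TF in growing cells (60.3). The summed signal of the 7 hepatocyte markers on the array was 158.9 in OIS, 159.5 in RS and 160.4 in growing cells. Of the 10 endothelial markers 5 were measured. At least 2-fold higher in OIS than in growing cells were 3 of these (ROBO4, PECAM1 and VWF), beside 4.92% of all measured genes. The list summed to 2210 in OIS, 2308 in RS and 1503 in growing cells. Most of that sum was TEK, with 1274.8 in OIS, 2033.1 in RS and 1251.3 in growing cells. CDH5, TIE1, ERG, KDR and CLDN5 stayed below the floor on all arrays; the part of such cells in the IGFBP1 value was not tested.

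IGFBP3, the main carrier of IGFs in blood and abundant in fibroblast medium, was the only member at least 2-fold higher in RS than in growing cells on its brightest probe set. Its brighter probe set read 10075 in OIS, 22950 in RS and 9990 in growing cells. The other read 2085 in OIS, 6492 in RS and 2120 in growing cells. RS was the highest array on both, 2.30-fold and 3.06-fold above growing cells, while OIS lay within 1.02-fold of growing cells on both. OIS was 2.28-fold and 3.11-fold lower than RS on the same probe sets. Both have the ending _s_at, which marks sets that can hybridize to several transcripts, so no IGFBP3 value remains when these are left out. Of all measured genes, 2.30% had a ratio of RS over growing cells at least as high as the brighter probe set. The summed smooth muscle and epithelial markers were also highest in RS. The 8 smooth muscle markers summed to 35333 in OIS, 84014 in RS and 51413 in growing cells, mostly ACTG2, ACTA2 and TAGLN. At least 2-fold lower in OIS than in growing cells were 2 (CNN1 and TAGLN), beside 6.63% of all measured genes. In RS 2 (LMOD1 and CNN1) were at least 2-fold higher, beside 3.72%. The muscle genes MYH11 and DES were at or below 59.0 on every array. The 12 epithelial markers summed to 3569 in OIS, 7049 in RS and 3738 in growing cells, mostly KRT18. Of 7 measured, 2 (KRT8 and KRT18) were at least 2-fold higher in RS and 1 (EPCAM) lower in OIS than in growing cells. The shares of all measured genes are 3.72% and 6.63%. EPCAM read 49.1 in OIS, 194.2 in RS and 157.1 in growing cells, and MUC1 235.6, 474.9 and 242.4. SFTPC, KRT19 and CLDN7 went the other way. SFTPC read 68.7 in OIS, 47.4 in RS and 80.7 in growing cells. KRT19 (55.5) and CLDN7 (46.7) were over the floor in growing cells and under it in RS, with 25.3 and 22.1. CDH1 and KRT5 stayed under the floor on all arrays. The part of either the smooth muscle or the epithelial list in the IGFBP3 value was not tested.

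IGFBP2, a carrier that also binds cells through integrins, had a single probe set with low signals. It read 105.5 in OIS, 45.8 in RS and 142.1 in growing cells. RS was 3.10-fold lower than growing cells, and OIS was 2.30-fold higher than RS, while OIS was 1.35-fold lower than growing cells, within 2 SDs of probe error. The RS value lay just over the floor. Under a higher floor of 88.8, the 60th percentile, it had a log2 ratio of -0.68 in RS against growing cells and 0.25 in OIS against RS, so neither passed 2-fold.

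IGFBP5, a carrier that binds to extracellular matrix, had 6 probe sets that did not give the same picture. The brightest read 21736 in OIS, 23213 in RS and 23551 in growing cells, near the top of the scale. The second read 3889 in OIS, 5802 in RS and 10203 in growing cells, so that OIS was 2.62-fold and RS 1.76-fold lower than growing cells. The other 4 lay between 335 and 1364, and their ratios to growing cells stayed within 1.25-fold in both senescent states. A lower IGFBP5 signal in senescence was thus read by the second probe set and not at that size by the other 5. The second set, like some of the dimmer ones, can hybridize to several transcripts, and the brightest does not have that mark. Which transcripts each set reads was not tested.

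IGFBP7 had 2 bright probe sets and a dim one. The brightest read 28630 in OIS, 31245 in RS and 25388 in growing cells. Of the 3, only this set is marked as able to hybridize to several transcripts. The second read 26076 in OIS, 32348 in RS and 17872 in growing cells, with RS 1.81-fold and OIS 1.46-fold higher than growing cells. The dim set read 65.3 in OIS, 218.8 in RS and 37.7 in growing cells, so that RS was at least 4.81-fold higher. All 3 gave the order RS, OIS, growing from high to low, and the size of the difference ran from 1.23-fold to at least 4.81-fold for RS over growing cells. The bright sets lay close to the highest signals of the arrays, 36639 in OIS, 36667 in RS and 33451 in growing cells; the part of that closeness in the smaller ratios was not tested.

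IGFBP4 and IGFBP6 had a single probe set each and stayed within 2-fold throughout. IGFBP4, a carrier that inhibits IGF action and is the chief substrate of the protease PAPPA, read 2045 in OIS, 1910 in RS and 1721 in growing cells. IGFBP6, which prefers IGF2, read 3479 in OIS, 4157 in RS and 2963 in growing cells, with RS 1.40-fold higher than growing cells. In neither gene did any pair of arrays differ by more than 2 SDs of probe error.

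**Figure D2:**
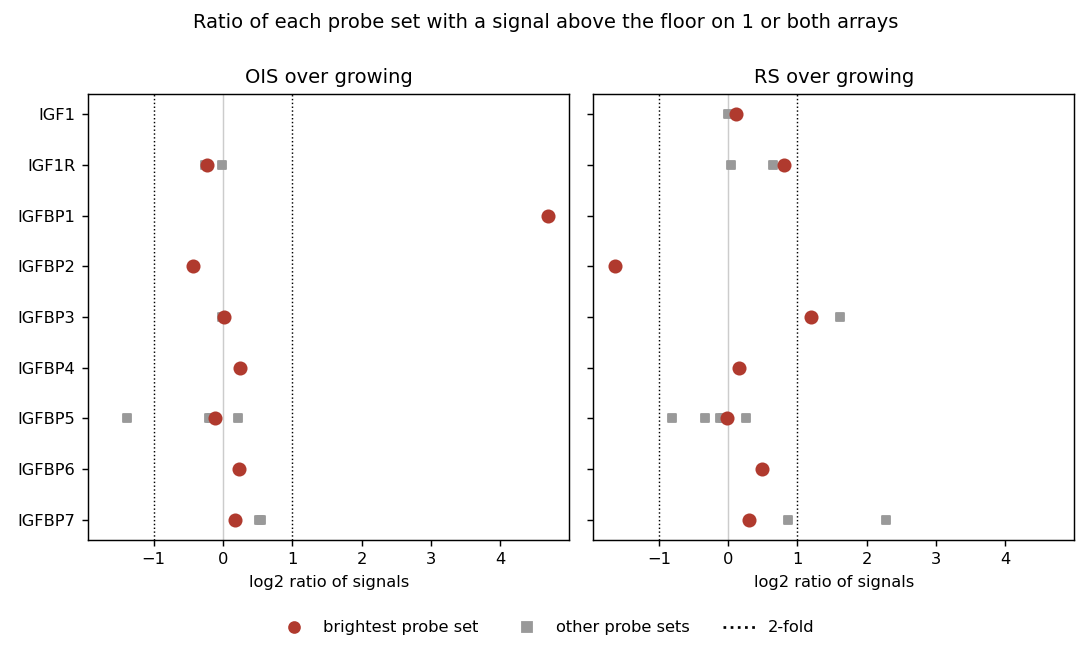
Log2 ratio of signals for OIS over growing cells (left) and RS over growing cells (right), 1 point per probe set above the floor on 1 or both arrays, with the brightest in red and 2-fold dotted. IGFBP1 is at 4.68 in OIS, IGFBP3 has both points past 1 in RS, and the points of IGFBP5 and IGFBP7 are spread.

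The binding protein genes lie partly in pairs. IGFBP1 and IGFBP3 are next to each other on chromosome 7 and IGFBP2 and IGFBP5 on chromosome 2, with 0 annotated genes starting between them in either pair. IGFBP1 had its highest signal in OIS and IGFBP3 in RS, as given above. IGFBP2 was 3.10-fold lower in RS than in growing cells, against 1.01-fold lower for the brightest probe set of IGFBP5.

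To set these values beside regulatory sequence, the promoters are shown of the genes that passed 2-fold in any comparison and have a window in the RefSeq promoter table (GRCh38.p14), which holds 7 of the 10 genes. No window of IGFBP1, IGFBP7 or IGF2 was used. Each run is the 250 bases before the annotated start, 5′ to 3′ on the gene's strand, with capitals for the GC box GGGCGG or its reverse complement CCGCCC, a short motif bound by Sp-family factors. IGFBP2 has 3 annotated starts and the most GC-rich window is given. The IGFBP3 window is chr7:45921273-45921522 on the minus strand, the IGFBP2 window chr2:216633170-216633419 on the plus strand and the IGF1R window chr15:98648289-98648538 on the plus strand.
IGFBP3: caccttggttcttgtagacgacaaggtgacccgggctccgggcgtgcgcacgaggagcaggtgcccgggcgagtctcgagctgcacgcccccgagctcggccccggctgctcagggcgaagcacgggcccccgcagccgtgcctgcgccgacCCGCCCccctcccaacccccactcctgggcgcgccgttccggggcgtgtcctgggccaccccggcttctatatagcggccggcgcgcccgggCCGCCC
IGFBP2: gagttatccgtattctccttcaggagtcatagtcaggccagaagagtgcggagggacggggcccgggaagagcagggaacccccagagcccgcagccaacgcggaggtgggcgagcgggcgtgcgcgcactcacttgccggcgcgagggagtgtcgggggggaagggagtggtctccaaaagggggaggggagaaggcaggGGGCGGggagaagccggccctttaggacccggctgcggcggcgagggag
IGF1R: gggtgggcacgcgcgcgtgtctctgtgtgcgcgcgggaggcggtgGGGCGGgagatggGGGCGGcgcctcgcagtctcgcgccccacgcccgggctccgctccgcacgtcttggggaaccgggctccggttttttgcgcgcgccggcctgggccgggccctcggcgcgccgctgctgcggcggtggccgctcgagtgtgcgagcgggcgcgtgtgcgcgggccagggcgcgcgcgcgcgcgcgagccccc

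The IGFBP3 window held 2 GC boxes, the IGF1R window 2 and the IGFBP2 window 1, and 42.6% of all 35116 windows in the table held at least 1. GC content was 76.0% for IGFBP3 and 81.2% for IGF1R, beside a median of 58.0% over all windows. The IGFBP2 window was chosen for its GC content of 69.2%, and the other windows of that gene had 56.8% with 1 GC box and 56.4% with 0. Among the genes within 2-fold on their brightest probe set, the windows of IGFBP4 and IGFBP6 held 1 GC box each and those of IGFBP5 and IGF1 held 0. None of the 3 printed windows held TATAAA on either strand, which 10.7% of all windows did. Only those exact letters were searched, and the IGFBP3 window holds tatata near its end. These are descriptions of letters, and IGFBP3 and IGF1R, highest in RS, share the GC boxes with IGFBP2, lowest in RS.

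**Figure D3:**
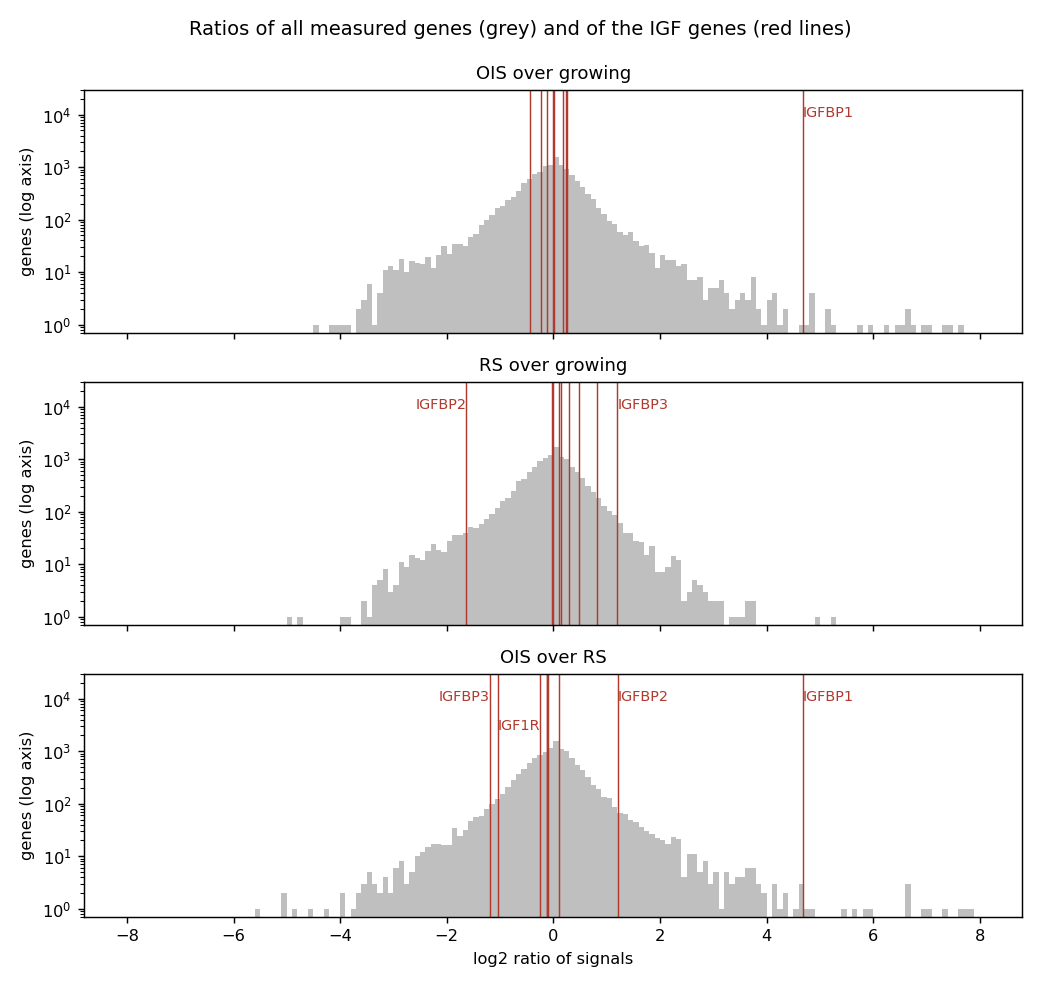
Histograms of the log2 ratios of all 13466 measured genes in the 3 comparisons (grey, log axis of gene counts), with red lines for the 9 IGF genes and names for those past 2-fold. IGFBP1 lies in the far upper tail of both comparisons with OIS on top, and the other named genes lie between 1.04 and 1.63 log2 units from 0.

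The genes whose pattern was most like that of each differing member were found by the smallest distance over the log2 ratios of OIS and of RS over growing cells, from 3 arrays. Only genes outside the family and above the floor on all 3 arrays were candidates. Nearest to IGFBP3 were PROSER2, EPS8L2 and FAM219B, at distances of up to 0.048 log2 units. PROSER2 read 561.5 in OIS, 1265 in RS and 561.0 in growing cells. Nearest to IGFBP2 were B3GALT2, SYTL2 and GPX7, and SYTL2 read 2611 in OIS, 1184 in RS and 3647 in growing cells. Nearest to IGF1R were ARHGEF11, PLXNA3 and PMS2P5. IGFBP1 was itself under the floor in RS and growing cells, so genes dark on those arrays as it was could not be matched to it. Among the candidates CHST2, a sulfotransferase, was nearest at a distance of 0.41, followed by RIPOR3-AS1 and the chemokine CXCL10. CHST2 read 4098 in OIS, 168.1 in RS and 200.3 in growing cells.

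Outside the family, several enzymes that cut IGFBPs, and inhibitors of such enzymes, had higher signals in OIS. Of 18 measured genes in that list, 8 were at least 2-fold higher in OIS than in growing cells and 0 lower, and the median log2 ratio was 0.81. In RS 1 was higher and 1 lower, with a median of 0.00, and 9 were at least 2-fold higher in OIS than in RS. The shares over all measured genes on the higher side are 4.92% for OIS and 3.72% for RS against growing cells, and 5.48% for OIS against RS. On the lower side they are 6.63% for OIS and 5.58% for RS against growing cells. MMP7 and ADAM28, counted among the 8 and among the 9, were measured only through OIS and so could only be higher there. The list was chosen with earlier results of these arrays known.

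PAPPA, the metalloprotease that cuts IGFBP4, read 13165 in OIS, 5043 in RS and 2961 in growing cells. OIS was 4.45-fold and RS 1.70-fold higher than growing cells, and all 7 probe sets above the floor were at least 2-fold higher in OIS than in growing cells, by 1.38 to 2.41 log2 units. STC1, a stanniocalcin that inhibits PAPPA, read 28482 in OIS, 9593 in RS and 4185 in growing cells. It was 6.81-fold higher in OIS and 2.29-fold higher in RS than in growing cells, although its other probe sets gave as little as 0.45 log2 units in RS. The related inhibitor STC2 differed by 1.04-fold between OIS and growing cells. IGFBP4, the substrate, differed by at most 1.19-fold between arrays, as given above.

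Further proteases of the list were higher in OIS. MMP3, a matrix metalloprotease that can also cut IGFBP3, read 20539 in OIS, 1322 in RS and 1417 in growing cells, 14.5-fold higher in OIS than in growing cells. PRSS3, a trypsin, was 5.35-fold higher in OIS. MMP7 was at least 4.65-fold and ADAM28 at least 2.21-fold higher in OIS, each with growing cells under the floor. ADAM12, which cuts IGFBP3 and IGFBP5, was 2.81-fold and HTRA3 2.08-fold higher in OIS than in growing cells, but 2 of 4 ADAM12 probe sets and 1 of 2 HTRA3 probe sets passed 2-fold. The lowest ratio in RS was that of the collagenase MMP1, with 33064 in OIS, 4444 in RS and 17604 in growing cells, 3.96-fold lower in RS than in growing cells. PAPPA2 was dim, with 52.1 in OIS, 30.1 in RS and 83.4 in growing cells, and ADAM9 differed by 1.05-fold in OIS.

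The growth hormone axis, which drives IGF1 production in the body, had 1 of 5 measured genes at least 2-fold higher in RS than in growing cells and 0 in OIS. The shares over all measured genes are 3.72% and 4.92%. GHR, the growth hormone receptor, read 55.1 in OIS, 312.8 in RS and 70.1 in growing cells on its only probe set. RS was 4.46-fold higher than growing cells and OIS 5.68-fold lower than RS, but the OIS and growing values lay not far over the floor. The smooth muscle sum given above was also highest in RS, and its part in the GHR value was not tested. Among the 5 measured genes of the list the kinase JAK2 differed by at most 1.05-fold from growing cells. CISH, a feedback inhibitor, was 1.50-fold higher in OIS, and the transcription factor STAT5A 1.45-fold higher.

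**Figure D4:**
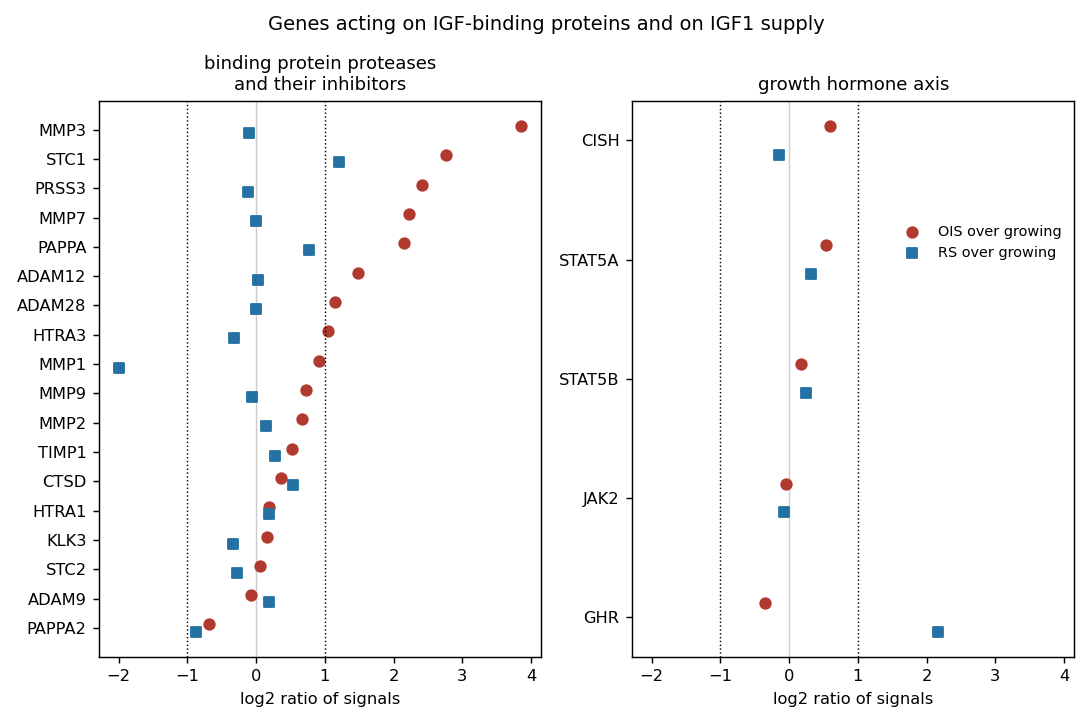
Log2 ratios of signals over growing cells for the measured proteases and inhibitors (left) and the growth hormone axis (right), with OIS as red circles, RS as blue squares and 2-fold dotted. MMP3, STC1 and PAPPA are past 2-fold in OIS, STC1 also in RS, and GHR is past 2-fold in RS at 2.16.

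Of 12 measured receptors, adaptors and feedback genes of the IGF pathway, 0 were at least 2-fold higher and 1 lower in OIS, beside 4.92% and 6.63% of all measured genes. In RS 0 were higher and 2 lower, SOCS1 and SOCS3, beside 3.72% and 5.58% of all genes. IGF2R, which takes up and clears IGF2, read 5987 in OIS, 4471 in RS and 4214 in growing cells. IRS1, the docking protein of the receptor, was 1.29-fold lower in OIS and 1.61-fold lower in RS than in growing cells, and SHC1 was 1.38-fold and 1.45-fold higher. SOCS3, a feedback inhibitor, read 1018 in OIS, 272.6 in RS and 936.4 in growing cells, 3.44-fold lower in RS, but its other probe sets gave as little as -0.48 log2 units. SOCS1 was 2.02-fold lower in OIS and 3.18-fold lower in RS on its brightest probe set, the only 1 of 3 past 2-fold. GAB1 was 1.98-fold lower in OIS, and the phosphatase PTPN11 differed from growing cells by 1.03-fold in OIS and 1.06-fold in RS.

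In the list of PI3K pathway genes 0 of 9 measured passed 2-fold in OIS, where 4.92% of all measured genes were higher and 6.63% lower. In RS 1 passed it, the phosphatase PHLPP1 at 2.01-fold lower, where 3.72% of all measured genes were higher and 5.58% lower. AKT2 was 1.34-fold and the kinase PDPK1 1.27-fold higher in OIS, and PDPK1 1.55-fold and INPPL1 1.20-fold higher in RS. PHLPP2 was 1.23-fold lower in OIS and PIK3R3 1.24-fold lower in RS. Of 13 TOR complex genes 0 passed 2-fold in OIS and 1 in RS, beside the same shares of all measured genes. The 1 in RS was EIF4EBP1, a repressor of translation, at 2.20-fold lower. RICTOR and AKT1S1 were 1.65-fold and 1.59-fold higher in OIS, and RHEB 1.31-fold lower. EIF4EBP2 was 1.63-fold and DEPTOR at least 1.59-fold higher in RS, and MLST8 1.26-fold lower.

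FOXO factors and genes reported as their targets had 1 of 15 at least 2-fold higher and 0 lower in OIS, beside 4.92% and 6.63% of all genes. In RS 1 was higher and 2 were lower, beside 3.72% and 5.58%. FBXO32, a ubiquitin ligase subunit, read 1047 in OIS, 181.0 in RS and 191.1 in growing cells, on a probe set that was 1 of 3 past 2-fold among 6. TXNIP was 2.58-fold higher in RS than in growing cells, and the cell cycle inhibitor CDKN1B 2.52-fold and KLF15 at least 2.14-fold lower. For KLF15 only 1 of 2 probe sets passed 2-fold in RS, and the other had a log2 ratio of 0.0. SOD2 was 1.99-fold higher and BCL2L11 1.65-fold lower in OIS, and FOXO4 1.54-fold higher in RS. The IGF2 mRNA-binding proteins IGF2BP1 to IGF2BP3 stayed within 2-fold of growing cells, and IGF2BP3 was 2.29-fold lower in OIS than in RS. That last direction turned to a log2 ratio of 0.13 when probe sets that can cross-hybridize were left out.

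Other proteins that carry an IGFBP domain had 3 of 10 measured members at least 2-fold higher in OIS and 0 in RS, beside 4.92% and 3.72% of all measured genes. CCN4, with 3 of 4 probe sets past 2-fold, was 3.29-fold, the endothelial proteoglycan ESM1 2.87-fold and HTRA3, already named as a protease, 2.08-fold higher in OIS than in growing cells. KAZALD1 was 1.94-fold and CRIM1 1.82-fold lower. In RS CCN2 was 1.79-fold higher and CCN3 1.78-fold lower than in growing cells.

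Checks of the labels and of cell identity concern all of these values. The proliferation gene MKI67 was 5.69-fold lower in OIS and 4.21-fold lower in RS than in growing cells, and LMNB1 9.25-fold and 10.1-fold lower. CCNB1 was 6.20-fold and 6.30-fold lower, and the cell cycle inhibitor CDKN2A 2.40-fold and 2.58-fold higher. CDKN2B, IL6 and CDKN1A were 9.93-fold, 19.8-fold and 2.60-fold higher in OIS, and 1.66-fold, 1.59-fold and 1.36-fold higher in RS. All 15 fibroblast markers were above the floor on all 3 arrays, with summed signals of 249796 in OIS, 249301 in RS and 242287 in growing cells. Among them DCN was 2.59-fold lower in OIS and S100A4 3.21-fold higher in RS than in growing cells, while collagens such as COL1A1 lay near the top of the scale. Of 9 blood markers with a probe set, HBB, CD79A and ITGAM were above the floor on all arrays and PTPRC on none, and the sum was 547.1 in OIS, 468.0 in RS and 493.1 in growing cells. HRAS read 11748 in OIS, 2553 in RS and 7696 in growing cells on its single probe set, and whether that set reads the fusion was not tested.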

How the data were processed

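The authors deposited, for each probe set, a linear intensity from MAS5 (named in the submitters' processing notes, without version or settings). The 2% trimmed mean lay between 497.0 and 497.2. The values cover 54613 probe sets, of which 41091 name 1 gene, 1801 several and 11721 none, and only the first were used. Of these, 41037 had a gene identifier in the RefSeq table and 0 needed another symbol. Groups came from the labels, and no detection calls were used.

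Signals were raised to the floor, log2 was taken and ratios were formed within probe sets. Genes at or past 2-fold were counted. Named genes were all members, the 2 highest and 2 lowest of each list in OIS and in RS over growing cells, the 3 nearest genes of each differing member and the label checks; IGFALS, STC2, HTRA3 as a protease, ADAM12, ADAM28, MMP7, PRSS3, IRS1 and single markers were added after their values were seen. The members, lists and tests were chosen with earlier results of these data known. Alternatives were quantile normalization, centring, floors at the 25th and 60th percentiles, a pseudocount of 16 without a floor, no filter, the median of all probe sets, leaving out cross-hybridizing sets and 3-fold. The second-brightest probe set, and the same settings for listed genes, were added after the data were seen. The steps were tested on simulated data. Python 3.11.15, numpy 2.4.6, pandas 2.3.3 and matplotlib 3.10.9 were used.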

Additional observations from a re-analysis of the deposited data

Results flagged for a closer look

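A signal appeared outside the genes used. Of the 3 probe sets that name INS-IGF2 and IGF2 together, a set that can cross-hybridize read 92.4 in OIS, 24.8 in RS and 18.4 in growing cells, above the floor only in OIS. The brightest of the 3 read 815.3 in OIS, 932.0 in RS and 765.0 in growing cells, and its log2 ratio to growing cells was 0.09 in OIS and 0.28 in RS. The faintest read 8.3 in OIS, 31.6 in RS and 5.1 in growing cells, under the floor on all arrays. None of these values can be assigned to IGF2 alone.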

How the results depend on the processing

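IGFBP1 kept its 2-fold call in OIS over growing cells under every alternative except the second-brightest probe set, which lies under the floor and left IGFBP5 as the 1 member called, with log2 ratios from 2.34 to 5.63. The count of 2 members past 2-fold in RS over growing cells was 1 with the floor at the 60th percentile (IGFBP3), 1 without cross-hybridizing probe sets (IGFBP2), 1 at 3-fold (IGFBP2) and 1 with the second-brightest probe sets (IGFBP3). With the floor at the 25th percentile it was 3, as IGF1 joined. The count of 4 in OIS over RS was 1 at 3-fold (IGFBP1) and 1 with the second-brightest probe sets (IGFBP3), 5 with the floor at the 25th percentile (IGF1 joined) and 3 with the 60th percentile floor, the pseudocount, the median of all probe sets or no cross-hybridizing sets. The 8 proteases and inhibitors at least 2-fold higher in OIS became 5 with the median of all probe sets, 4 without cross-hybridizing sets (13 measured), 5 at 3-fold and 3 with the second-brightest sets (9 measured). IGF2BP3 in OIS over RS turned to a log2 ratio of 0.13 without cross-hybridizing sets. Of 195 other-setting values of the members, 169 moved by less than probe error and 26 by more, 0 of the latter under quantile normalization or centring. Centring could move no value past probe error, since the median log2 ratio over all measured genes was already 0.0 in each comparison. IGFBP5 was at -1.39 in OIS over growing cells on its second-brightest set. IGF1R in OIS over RS was at -0.30 with the median of all sets and on the second-brightest. With 1 array per condition, no setting measures differences between cultures, and dim genes such as IGF1 and IGFBP2 are limited by the floor.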
